A study of Mus musculus with 48 samples.

Results

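The 37 genes described here encode the enzymes of glycolysis and other products of the hypoxia response in mouse fibroblasts. They were taken as a list of gene symbols of 19 glycolytic enzymes, 16 other targets of the hypoxia-inducible factors (HIF) and the 2 HIF alpha subunits, Hif1a and Epas1. Of these, 33 had a probe set of their own in the platform annotation and were tested, among 18193 genes with a single symbol. Each gene is shown by its probe set of highest mean log2 value. The tested genes were 16 glycolytic enzymes, 15 other HIF targets and both alpha subunits. No probe set was named for Gpi1 or Eno1, so both are not analysed here. Bnip3l was named only by probe sets that it shares with a second gene, and Gapdh only by the control probe sets of the array, which are described without a test.

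The cells were NIH3T3, an established line of mouse embryo fibroblasts, grown to confluence and treated with forskolin, an activator of adenylyl cyclase that brings their circadian clocks into step. Total RNA was taken every hour from 20 to 67 h after forskolin, and the RNA of each hour went onto 1 Affymetrix expression array. The course asked which transcripts cycle in these cells. All 48 arrays share the line, the culture and the forskolin treatment, so the hour after treatment is the sole labelled difference between groups. There is no untreated group, and no hour has a replicate. Differences of dish, RNA quality or array therefore cannot be separated from the hour.

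Glycolysis converts glucose to pyruvate in the cytosol, and lactate dehydrogenase turns the pyruvate into lactate when it does not enter the mitochondria. Most of its enzymes are encoded by targets of HIF, a factor made of an alpha subunit and the constant partner Arnt. While oxygen is present, prolyl hydroxylases of the Egln family mark the alpha subunit for destruction by the VHL ubiquitin ligase, and when oxygen falls the subunit accumulates and binds a short core sequence near its targets. The pathway is therefore controlled largely at the level of the alpha protein, which arrays do not measure.

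Values are log2 of the deposited intensities, and the medians of the 48 arrays lay between 6.58 and 6.71. The median of all probe-set means was 6.67. Of the tested genes 29 lay above it on average, and Aldoc, Slc16a3, Car9 and Epas1 below. On 10 arrays, 7 of them between hours 20 and 43, the 3′ probe set of β-actin exceeded the 5′ probe set by over 1.4 on the log2 scale, against a median difference of 1.13 over the course. The median excess of the members on those arrays was 0.10 for glycolytic enzymes and 0.08 for other HIF targets, against 0.01 for all probe sets above the median. The BioB hybridisation control was 0.90 higher at hours 52 to 55 than at the other hours. Fibroblast markers lay above the median in 9 of 10 cases, Fap being the exception, whereas all 4 endothelial, 4 epithelial, 3 skeletal muscle and 2 liver markers lay below it. Of 4 macrophage markers only Cd14 lay above it.

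The promoters below belong to the 5 members with the largest excursion at hour 27, the main event of the course described further on, and to Ldha, which fell through the course. Each window runs from 250 bases before to 50 bases after the transcription start, as given by RefSeq for build GRCm38.p6, and is printed 5′ to 3′ on the strand of the gene. Egln3 lies on the minus strand at chr12:54203825-54204124, Ankrd37 on the minus strand at chr8:45999801-46000100 and Adm on the plus strand at chr7:110627407-110627706. Hk2 lies on the minus strand at chr6:82774405-82774704, Pfkp on the minus strand at chr13:6648722-6649021 and Ldha, in the first of its 2 windows, on the plus strand at chr7:46845554-46845853. Capitals mark the HIF core motif, ACGTG or GCGTG, and its reverse complements CACGT and CACGC.
Egln3: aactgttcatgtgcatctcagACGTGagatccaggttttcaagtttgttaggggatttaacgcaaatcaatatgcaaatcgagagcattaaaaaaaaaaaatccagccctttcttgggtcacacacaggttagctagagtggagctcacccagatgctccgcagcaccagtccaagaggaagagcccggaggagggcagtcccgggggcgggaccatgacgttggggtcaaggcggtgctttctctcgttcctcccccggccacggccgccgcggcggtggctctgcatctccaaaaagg
Ankrd37: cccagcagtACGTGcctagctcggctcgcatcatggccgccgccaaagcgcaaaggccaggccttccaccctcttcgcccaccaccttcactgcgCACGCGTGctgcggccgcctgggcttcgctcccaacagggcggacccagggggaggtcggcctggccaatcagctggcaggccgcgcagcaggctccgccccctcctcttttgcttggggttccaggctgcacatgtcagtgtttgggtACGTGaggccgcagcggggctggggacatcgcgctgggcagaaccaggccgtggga
Adm: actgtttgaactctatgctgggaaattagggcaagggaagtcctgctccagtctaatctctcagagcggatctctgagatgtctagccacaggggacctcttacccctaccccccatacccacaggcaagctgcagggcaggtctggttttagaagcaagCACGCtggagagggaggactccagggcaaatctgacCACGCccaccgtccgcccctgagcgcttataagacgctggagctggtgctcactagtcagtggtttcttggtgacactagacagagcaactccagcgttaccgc
Hk2: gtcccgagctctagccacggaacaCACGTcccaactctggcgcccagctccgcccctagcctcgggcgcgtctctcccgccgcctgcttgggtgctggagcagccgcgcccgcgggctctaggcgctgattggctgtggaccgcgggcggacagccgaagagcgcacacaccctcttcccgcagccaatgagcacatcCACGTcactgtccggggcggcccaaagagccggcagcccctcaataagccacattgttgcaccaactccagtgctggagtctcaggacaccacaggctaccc
Pfkp: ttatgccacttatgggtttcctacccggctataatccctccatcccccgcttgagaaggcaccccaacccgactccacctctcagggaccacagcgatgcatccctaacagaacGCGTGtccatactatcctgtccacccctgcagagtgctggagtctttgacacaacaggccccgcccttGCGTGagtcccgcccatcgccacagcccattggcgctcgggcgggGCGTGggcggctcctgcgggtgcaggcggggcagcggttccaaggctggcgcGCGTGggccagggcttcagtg
Ldha: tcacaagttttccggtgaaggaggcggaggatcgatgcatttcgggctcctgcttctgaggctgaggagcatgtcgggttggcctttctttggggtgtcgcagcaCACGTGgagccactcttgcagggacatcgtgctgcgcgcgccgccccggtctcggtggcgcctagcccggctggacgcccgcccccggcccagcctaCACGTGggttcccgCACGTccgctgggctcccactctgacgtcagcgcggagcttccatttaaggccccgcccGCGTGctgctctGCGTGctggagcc

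The Egln3 window holds 1 match, Hk2 and Adm hold 2 each, Ankrd37 and Pfkp hold 4 each, and Ldha holds 7. Matches are counted on both strands, and the Ldha window also contains the E-box CACGTG, which other factors bind and whose letters hold the core motif on each strand. RefSeq windows were found for 34 of the 37 genes, 48 windows in all, and Bnip3l, Epas1 and Ndrg1 had none. A core motif on either strand was present in 39 of the 48 windows, or 81.2%, against 43.8% of 32851 promoter windows of the same length. The ACGTG form alone was in 56.2% of the member windows and in 19.6% of all windows. The motif did not separate the members that moved at hour 27 from those that did not: it was found in 10 of 11 genes with an excursion there and in 19 of 20 genes without one. A match is a description of these letters and not a measured binding site.

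Between hours 20 and 67 more glycolytic transcripts fell than rose, while most other HIF targets had no linear trend past the threshold. In limma fits of a slope per day with a 24 h cosine, 10 of 16 glycolytic enzymes passed an adjusted p of 0.05, of which 8 fell and 2 rose. Of 15 other HIF targets, 4 passed, 2 in each direction, and of the alpha subunits Hif1a rose. Over all 45037 probe sets 30.4% passed (14.2% rising and 16.2% falling), and among probe sets above the median 52.8% passed, with 26.4% in each direction. The members as a whole, at 15 of 33, were thus near the background of well-measured probe sets. On the arrays with a β-actin difference of 1.4 or less, 7 glycolytic enzymes fell and 1 rose, while the share of all probe sets that fell was 29.0% and that of rising ones 15.0%. The median slope was -0.09 log2 per day for glycolytic enzymes, -0.01 for other HIF targets and -0.003 for all probe sets. In bulk RNA, fewer cells with a transcript and less of it per cell cannot be told apart. The p-values treat the hours as independent samples.

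**Figure D1:**
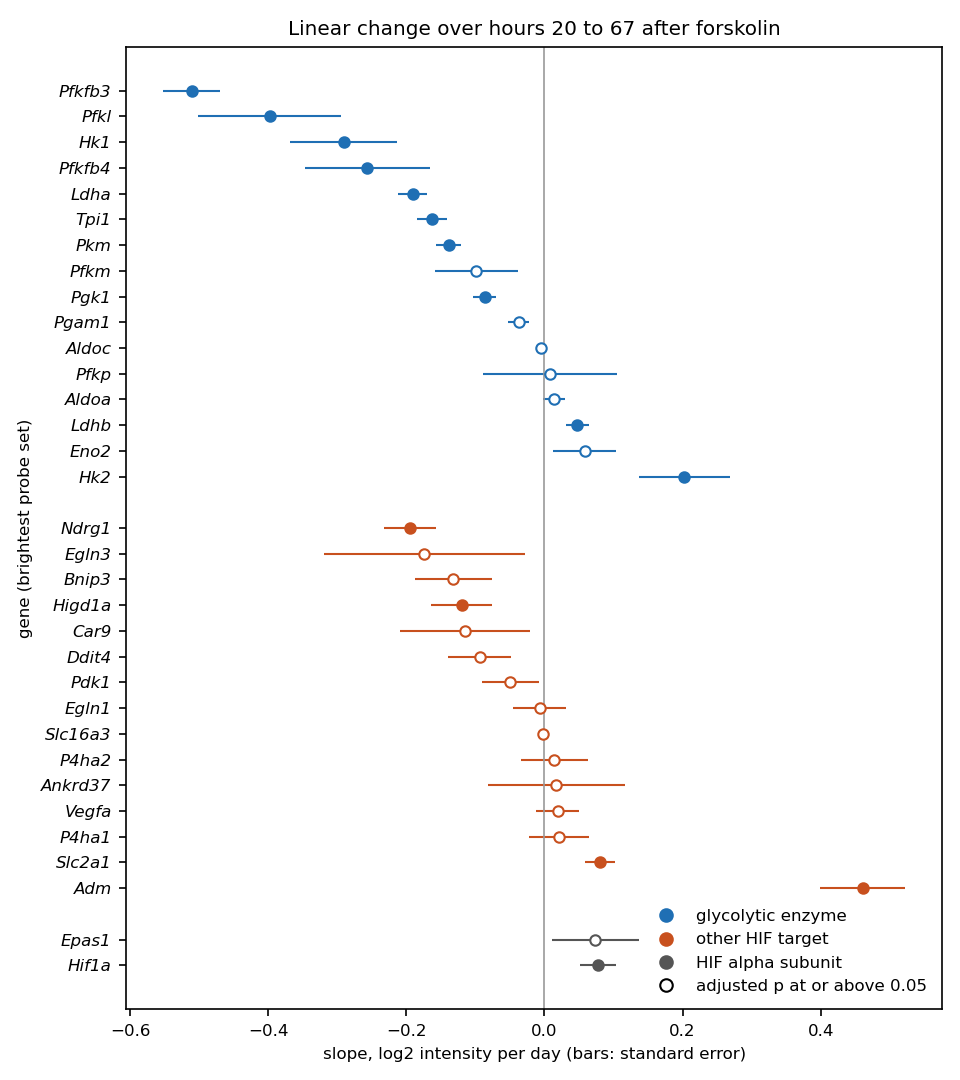
Slope of log2 intensity per day (x axis) for the 33 tested members, grouped as glycolytic enzymes, other HIF targets and HIF alpha subunits; points are estimates from limma, bars are standard errors, and open points did not pass an adjusted p of 0.05. The 8 glycolytic enzymes that fell form the left side of the upper block, from Pfkfb3 at -0.51 to Pgk1 at -0.09, and Adm at 0.46 stands far to the right of every other member.

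The largest fall was that of Pfkfb3, the bifunctional enzyme that makes the sugar bisphosphate activator of phosphofructokinase. Its log2 values ran from 12.79 to 14.23 with a median of 13.24. The values of hours 20 to 25 lay between 13.71 and 14.00 and those of hours 62 to 67 between 12.79 and 13.12, with no overlap. The slope was -0.51 ± 0.04 (SE) log2 per day (limma, adjusted p = 1.76e-14), a 2.0-fold fall across the course. The profile was not even, since the values stayed at or above 13.71 through hour 27 and below it from hour 28 on. Pfkfb4, which makes the same regulator, had a slope of -0.26 ± 0.09 (adjusted p = 0.0261), but this rested on the first array, and without hour 20 it was -0.17 with an adjusted p of 0.113.

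Among the enzymes of the first steps, the members moved in both directions. Hexokinase, which traps glucose as glucose 6-phosphate, is encoded by Hk1 and Hk2. Hk1 ranged from 12.38 to 13.77 with a median of 12.82, and its slope was -0.29 ± 0.08 (adjusted p = 0.00264). Its first and last 6 values overlapped, since hours 20 to 25 spanned 12.53 to 13.77 and hours 62 to 67 spanned 12.47 to 12.87. The second Hk1 probe set had a slope of -0.08 ± 0.12 that did not pass (limma, adjusted p = 0.572). The mean of the Hk1 probe sets had a slope of -0.19, which did not pass either (adjusted p = 0.0778). Hk2 ranged from 15.12 to 16.85 with a median of 15.53, and rose at 0.20 ± 0.07 per day (adjusted p = 0.0153). Its values at hours 20 to 25, from 15.12 to 15.49, all lay below those at hours 62 to 67, from 15.59 to 15.87. Without hours 20 to 25 the Hk2 slope was 0.15 and did not pass (adjusted p = 0.167). The log2 ratio of Hk1 to Hk2, each read by its brightest probe set, fell by 0.49 ± 0.09 (SE) per day.

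Phosphofructokinase, the main control point of glycolysis, has the liver, muscle and platelet forms Pfkl, Pfkm and Pfkp. Pfkl ranged from 14.28 to 16.25 with a median of 14.96, and its slope was -0.40 ± 0.10 (adjusted p = 0.00202). The other Pfkl probe sets had slopes of -0.45 and -0.34. The dimmer of these, with a mean of 6.24, lay below the median of all probe sets and had its highest value, 8.52, at hour 27. Pfkm had a slope of -0.10 ± 0.06 that did not pass (adjusted p = 0.161), and Pfkp a slope of 0.01 ± 0.10 (adjusted p = 0.947). The log2 ratio of Pfkl to Pfkm fell by 0.30 ± 0.06 per day. These 3 genes and Hk1 were also higher on the 10 arrays of high β-actin difference. The excess was 0.64 for Pfkl, 0.46 for Pfkm, 0.42 for Pfkp and 0.64 for Hk1. The part of those arrays in the profiles was tested only through fits without them and fits with a β-actin covariate. Without those arrays the Hk1 slope was -0.17 (adjusted p = 0.0596) and the Pfkfb4 slope -0.07 (adjusted p = 0.389), while Pfkl still passed. The Hk2 slope was then 0.18 and did not pass either (adjusted p = 0.0706). With the β-actin covariate 2 glycolytic enzymes rose and 7 fell, and the Pfkfb4 slope was -0.14 (adjusted p = 0.0922).

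In the lower part of the pathway Ldha, Pkm, Tpi1 and Pgk1 fell, with smaller slopes and smaller standard errors than Pfkl and Hk1. Ldha, which encodes the main subunit for making lactate, ranged from 17.66 to 18.39 with a median of 17.96. Its values at hours 20 to 25 were 18.11 to 18.19, all above the 17.66 to 17.95 of hours 62 to 67. The slope was -0.19 ± 0.02 (adjusted p = 3.52e-10), a 1.30-fold fall across the course. Pkm, pyruvate kinase of the last step, ranged from 17.56 to 18.03 with a median of 17.76, and fell at -0.14 ± 0.02 per day (adjusted p = 1.64e-08). Its first and last 6 values did not overlap, and 16 of the 24 values from hour 44 on lay below every value of the first 24 hours.

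Tpi1, which interconverts the triose phosphates, fell at -0.16 ± 0.02 per day, and its other probe sets gave -0.14 and -0.15. Pgk1, the first enzyme that makes ATP in the pathway, fell at -0.09 ± 0.02, with further probe sets at -0.12 and -0.13 that also passed. Ldhb, the lactate dehydrogenase subunit that favours pyruvate formation, had a slope of 0.05 ± 0.02 (adjusted p = 0.0208), which without hour 20 became 0.04 (adjusted p = 0.0750). The log2 ratio of Ldha to Ldhb fell by 0.24 ± 0.03 per day, and its first 6 values all lay above its last 6. Aldoa (aldolase), Pgam1 (phosphoglycerate mutase) and Eno2 (enolase) had slopes of 0.01 ± 0.02, -0.04 ± 0.02 and 0.06 ± 0.05, none past the threshold. The further Aldoa probe sets disagreed, with 3 of 4 rising and 1 falling past the threshold. Aldoc stayed between 5.48 and 5.52, at the floor of the array, throughout.

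Gapdh, the dehydrogenase used as a loading control, was read by its control probe sets alone. The 3′ set ranged from 18.63 to 18.84 with a slope of -0.07 ± 0.01 per day, and the middle set had a slope of -0.06 ± 0.01. The 5′ set, which differs most between arrays of unequal RNA integrity, had a slope of 0.05 ± 0.05. No test was made on these 3 sets.

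**Figure D2:**
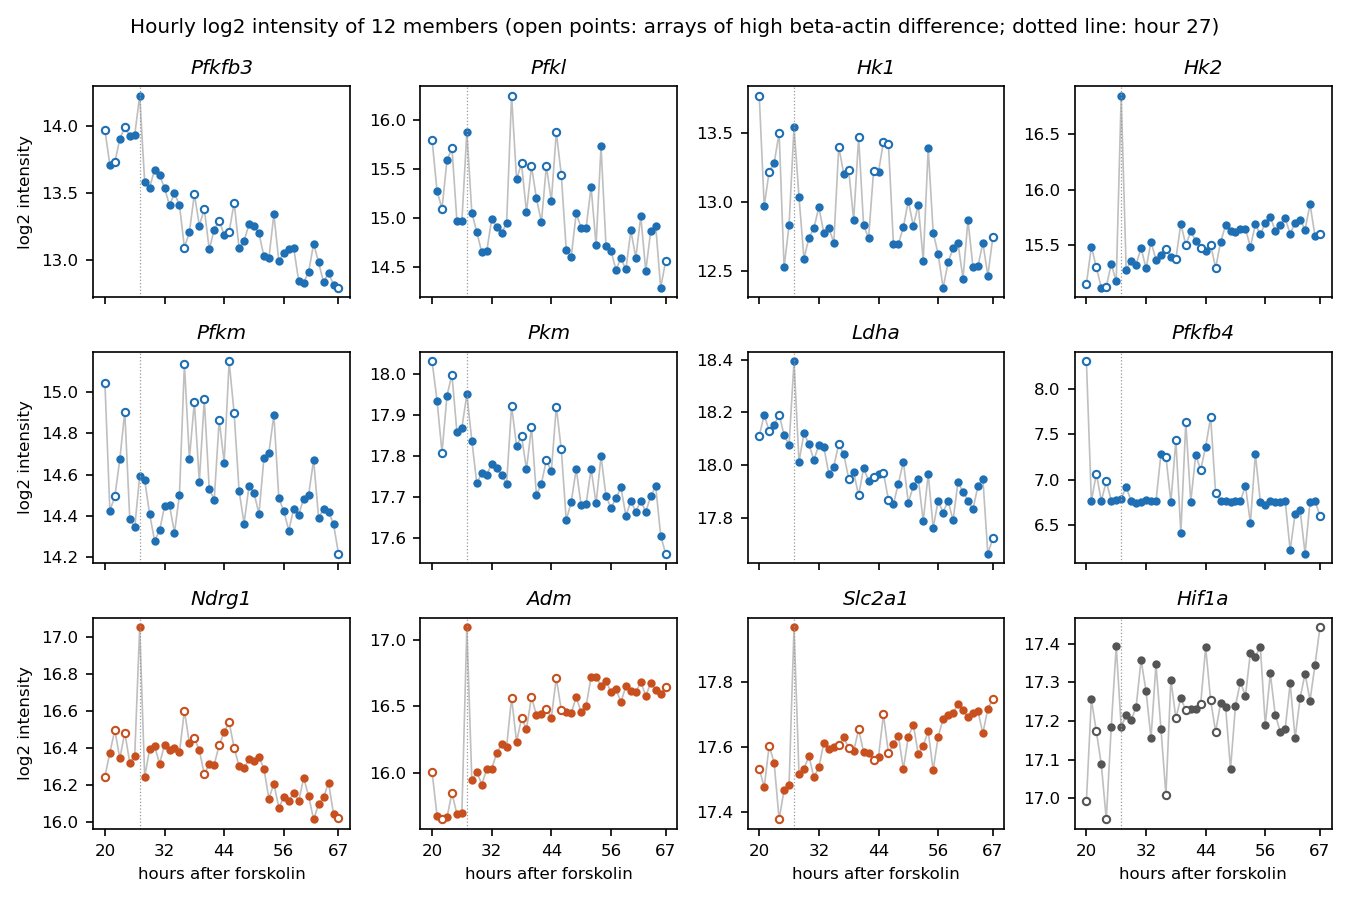
Log2 intensity (y axis, a separate scale for each panel) against hours after forskolin (x axis) for 12 members, 1 point per array; blue marks glycolytic enzymes, orange other HIF targets and grey Hif1a, open points are the 10 arrays of high β-actin difference, and the dotted line is hour 27. Pfkfb3, Ldha and Pkm descend, Adm climbs from about 15.7 to 16.6, and single points at hour 27 tower over the profiles of Hk2, Ndrg1, Adm and Slc2a1.

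Among the other HIF targets the strongest change was a rise. Adm encodes adrenomedullin, a secreted vasodilator peptide. It ranged from 15.65 to 17.09 with a median of 16.46, the values of hours 20 to 25 lying between 15.65 and 16.01 and those of hours 62 to 67 between 16.58 and 16.68. The slope was 0.46 ± 0.06 (adjusted p = 3.09e-08), a 1.87-fold rise across the course, and the second probe set gave 0.95 ± 0.12. The rise was not even, since the values of the brightest Adm probe set stayed between 16.45 and 16.72 from hour 45 on. Slc2a1, the main glucose transporter of fibroblasts, rose at 0.08 ± 0.02 per day (adjusted p = 0.00336). Its values at hours 20 to 25, 17.38 to 17.60, lay below the 17.64 to 17.75 of hours 62 to 67, and without hours 20 to 25 the slope was 0.07 (adjusted p = 0.0616).

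Ndrg1, a stress-responsive cytoplasmic protein, fell. It ranged from 16.01 to 17.05 with a median of 16.32, and its slope was -0.19 ± 0.04 (adjusted p = 4.17e-05). Its values at hours 20 to 25 (16.24 to 16.50) lay above those at hours 62 to 67 (16.01 to 16.21), and 4 of its 5 probe sets passed in the same direction. Higd1a, a mitochondrial inner membrane protein, had a slope of -0.12 ± 0.04 (adjusted p = 0.0354), but its other probe sets had slopes of 0.09 each that did not pass. The mean over all its probe sets had the opposite sign, 0.02 (adjusted p = 0.736), and without the 10 arrays with a β-actin difference above 1.4 the slope was -0.08 (adjusted p = 0.124).

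The remaining HIF targets had no linear trend past the threshold. Bnip3, a mitophagy receptor, came nearest with -0.13 ± 0.06 (adjusted p = 0.0664). Ddit4, an inhibitor of mTORC1, had -0.09 ± 0.05, and Pdk1, the kinase that closes pyruvate dehydrogenase, had -0.05 ± 0.04. Egln1 and Egln3, the prolyl hydroxylases that act on HIF alpha, had -0.01 ± 0.04 and -0.17 ± 0.15. P4ha1 and P4ha2, collagen prolyl hydroxylases, had 0.02 ± 0.04 and 0.01 ± 0.05, although the second P4ha1 probe set rose at 0.18 (adjusted p = 0.0177). Ankrd37 had 0.02 ± 0.10. Vegfa, the angiogenic growth factor, ranged from 14.42 to 15.00 with a median of 14.64 and a slope of 0.02 ± 0.03. Slc16a3, the lactate exporter, and Car9, a surface carbonic anhydrase, stayed near the floor apart from the single hours of Car9 given below.

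Hif1a ranged from 16.95 to 17.44 with a median of 17.24. Its slope was 0.08 ± 0.03 (adjusted p = 0.0201), which without hour 20 became 0.07 (adjusted p = 0.0638) and without the 10 arrays with a β-actin difference above 1.4 0.03 (adjusted p = 0.392). Its further probe sets disagreed: one rose at 0.09 and passed, and those with slopes of -0.05 and -0.06 did not pass. Epas1 had a median of 5.59, below the median of all probe sets, with a slope of 0.07 ± 0.06.

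**Figure D3:**
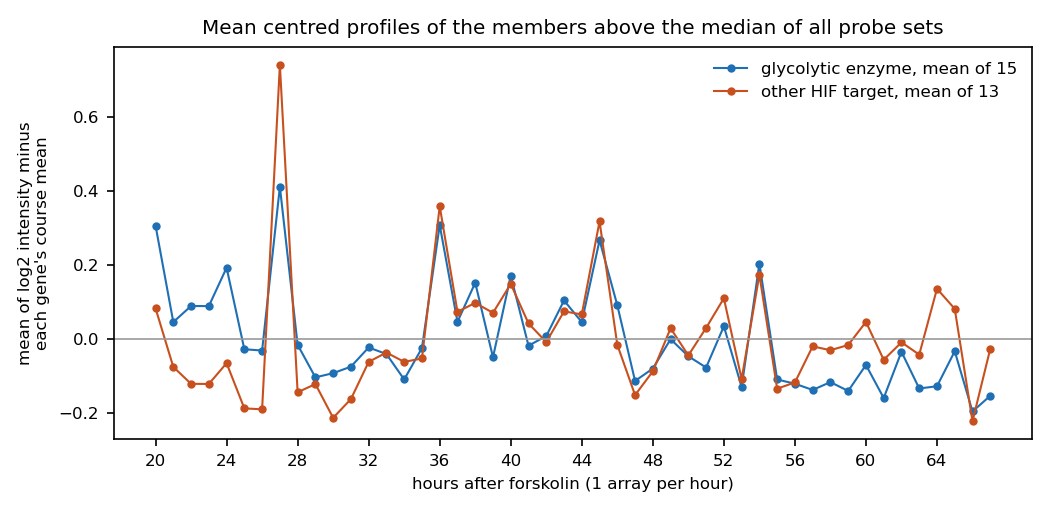
Mean over genes of log2 intensity minus the mean of each gene over the course (y axis) against hours after forskolin (x axis), for the 15 glycolytic enzymes (blue) and 13 other HIF targets (orange) above the median of all probe sets, 1 array per hour. The glycolytic mean goes from 0.12 over hours 20 to 25 to -0.11 over hours 62 to 67, the mean of the other HIF targets from -0.08 to -0.01, and both have their highest point at hour 27, 0.41 and 0.74.

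The mean profiles of the 2 groups stood apart at hours 20 to 25 (0.12 for glycolytic enzymes against -0.08) and at hour 27 (0.41 against 0.74). At hours 62 to 67 they stood apart in the other direction from the start, at -0.11 against -0.01. Each profile is centred on its own mean, so a gap at one end goes with an opposite gap elsewhere. The median slope of the glycolytic enzymes was 0.09 log2 per day lower than that of the other HIF targets (difference -0.09). The difference was -0.02 without hours 20 to 25, and -0.05 from the arrays whose β-actin difference was 1.4 or less. It is a description of the listed genes, which were not drawn at random, and carries no p-value. Non-overlap of the first and last 6 values was seen in 5 glycolytic enzymes and 3 other HIF targets, 8 of 33 members, against 13.1% of all probe sets and 24.7% of those above the median.

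A test of any smooth change, a natural spline with 4 degrees of freedom in limma, called 19 of 33 members, 13 of them glycolytic enzymes. As 76.0% of all probe sets and 72.4% of those above the median were called, this count lay below the background. That relation depends on the scaling: after quantile normalization 15 members were called against 45.5% of all probe sets, and after centring of each array 15 against 34.2%. It added Pfkm (adjusted p = 0.0129), Aldoa, Pgam1 and Aldoc to the glycolytic enzymes called by slope, and Hk2 was not called by it (adjusted p = 0.0529). Pfkm had its highest value, 15.15, at hour 45 and its lowest, 14.22, at hour 67.

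The lists drawn up around the pathway held genes that rose and genes that fell, beside the 30.4% of all probe sets and 52.8% of those above the median that passed. Of 13 genes of the HIF machinery, 1 rose and 5 fell. Cul2 and Rbx1, which belong to the VHL ubiquitin ligase, fell at -0.19 ± 0.05 and -0.18 ± 0.05 per day. Vhl itself had a slope of 0.05 ± 0.02 that did not pass (adjusted p = 0.0920). Elob did not pass either (0.02 ± 0.02, adjusted p = 0.312), while Eloc fell at -0.14 ± 0.01. The machinery gene that rose was Arnt2, at 0.15 ± 0.04. Of 28 measured further HIF targets, 7 rose and 8 fell. Stc2, a secreted glycoprotein, rose at 0.66 ± 0.09 and Bhlhe40, a transcriptional repressor that is also a clock gene, at 0.29 ± 0.08. Angptl4, a secreted inhibitor of lipoprotein lipase, fell at -1.22 ± 0.07, Gys1, muscle glycogen synthase, at -0.69 ± 0.14, Tfrc, the transferrin receptor, at -0.53 ± 0.03 and Pdk3, a pyruvate dehydrogenase kinase, at -0.22 ± 0.04. Of 28 measured further genes of glycolysis and pyruvate use, 8 rose and 4 fell, and all 4 named here rose. They were Pdp1, the phosphatase that opens pyruvate dehydrogenase (0.38 ± 0.05), Tigar, a fructose bisphosphatase (0.31 ± 0.05), Pfkfb2 (0.25 ± 0.03) and Bpgm, bisphosphoglycerate mutase (0.24 ± 0.03). Pfkfb2 thus rose while Pfkfb3, of the same enzyme family, fell.

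No member passed a test for a daily rhythm. The 24 h cosine passed for 0 of 33 members in limma, with 3 at an unadjusted p under 0.05 (Pfkfb3, Pgk1 and Pgam1), against 0.293% of all probe sets called. The largest amplitude was 0.20, that of Egln3 (adjusted p = 0.829), and the lowest adjusted p was 0.427, that of Pfkfb3 with an amplitude of 0.09. At 12 h, 0 members passed, with 1 at an unadjusted p under 0.05 (Hif1a), and 0.00% of all probe sets did. At 8 h, 0 passed, with 4 at an unadjusted p under 0.05 (Pfkm, Aldoc, Eno2 and Slc16a3), and again 0.00% of all probe sets. Of these, Aldoc had the lowest adjusted p, 0.0571, with an amplitude of 0.01 at the floor of the array.

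Fisher's G-test, which asks whether 1 of 23 Fourier periods dominates a profile, called 6 members: Adm, Pfkfb3, Ldha, Ndrg1, Tpi1 and Aldoc. All 6 had 48 h, the length of the whole course, as the dominant period, and 5 of them, all except Aldoc, also had a slope past the threshold. The test called 46.3% of all probe sets at any period, and 0 members against 0.959% of all probe sets at 24, 12 or 8 h, where 0 members had an unadjusted p under 0.05 as well. A single array could hide such a call. With hour 27 replaced by the mean of its neighbours, Slc2a1 was called at 24 h, and with hour 20 replaced, Hif1a was called at 12 h.

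The most pronounced event in these genes lay on a single array. At hour 27, 12 of 33 members rose above the surrounding hours by at least 0.5 on the log2 scale and by more than 4 times their own usual scatter. These were 9 of 15 other HIF targets, 3 of 16 glycolytic enzymes and 0 of 2 alpha subunits, against 0.826% of all probe sets and 1.13% of those above the median. Each deviation is measured from the median of hours 25, 26, 28 and 29. It has no replicate and hence no test, and a change in the cells at hour 27 and a difference of that single dish cannot be told apart.

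The HIF feedback enzyme Egln3 deviated most. Its log2 values at hours 25 to 29 were 11.01, 10.96, 13.50, 11.33 and 11.24, a deviation of 2.37 or 5.16-fold. Hour 27 was the highest of its 48 values, whose median was 11.62, and its second probe set deviated by 1.66. Ankrd37, an ankyrin repeat protein of the HIF response, read 13.12, 13.10, 15.05, 13.12 and 13.14, a deviation of 1.93 or 3.81-fold. At hour 28 both genes were again close to their values of hour 26.

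Hk2 read 15.33, 15.18, 16.85, 15.28 and 15.36, a deviation of 1.54 or 2.91-fold, the largest among glycolytic enzymes. Adm read 15.69, 15.70, 17.09, 15.94 and 16.01, a deviation of 1.27 or 2.42-fold, with 2.60 on its second probe set. Before hour 27 the Adm values lay between 15.65 and 16.01, and after it they rose to 16.71 by hour 45. Pfkp read 11.31, 11.09, 12.28, 11.19 and 10.87, a deviation of 1.15 or 2.21-fold.

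The other excursions at hour 27 were smaller. Bnip3 deviated by 0.92, Egln1 by 0.82, P4ha2 by 0.82, Higd1a by 0.72 and Ndrg1 by 0.71, and all 5 probe sets of Ndrg1 and all 3 of Higd1a showed an excursion. Eno2 was the third glycolytic enzyme, with a deviation of 0.73. Car9 deviated by 1.01 from values at the floor, reaching 6.52, still below the median of all probe sets.

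Several members moved up without meeting the rule. Pfkl and Hk1 deviated by 0.92 and 0.83, which was 2.05 and 2.52 times their own scatter. Ddit4 (0.50), Pfkfb3 (0.47), Slc2a1 (0.47), P4ha1 (0.44), Pdk1 (0.38) and Vegfa (0.34) stayed under the size required. Ddit4 at 0.497 and Ndrg1 at 0.71 are the members nearest to that size on either side. Apart from Eno2, the lower glycolytic enzymes deviated by 0.30 or less: Ldha and Tpi1 by 0.30 each, Pgam1 by 0.17, Aldoa by 0.13, Pkm by 0.10, Pgk1 by 0.06 and Ldhb by -0.07. Hif1a read 17.19 at hour 27 and deviated by -0.02, and Epas1 by -0.005. The other Hif1a probe sets deviated upward, by 0.26, 0.10 and 0.69, without meeting the rule, and those at 0.26 and 0.69 had their highest value of the course at hour 27.

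Among the members above the median of all probe sets, the median deviation at hour 27 was 0.72 for the other HIF targets and 0.30 for glycolytic enzymes, against -0.01 for all probe sets above the median. All 13 such HIF targets and 14 of 15 such glycolytic enzymes deviated upward. Hour 27 held the highest value of the whole course in 17 of 33 members (11 other HIF targets and 6 glycolytic enzymes), and in 1.44% of all probe sets. Over the 71 probe sets of the members, 24 had an upward excursion at hour 27, against 0.826% of all probe sets. The 24 came from 15 genes, with Pdk1, Slc2a1 and Pfkl added through a dimmer probe set. That of Pfkl had a mean of 6.24, below the median of all probe sets. Probe sets of the same gene on the same array are not independent.

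**Figure D4:**
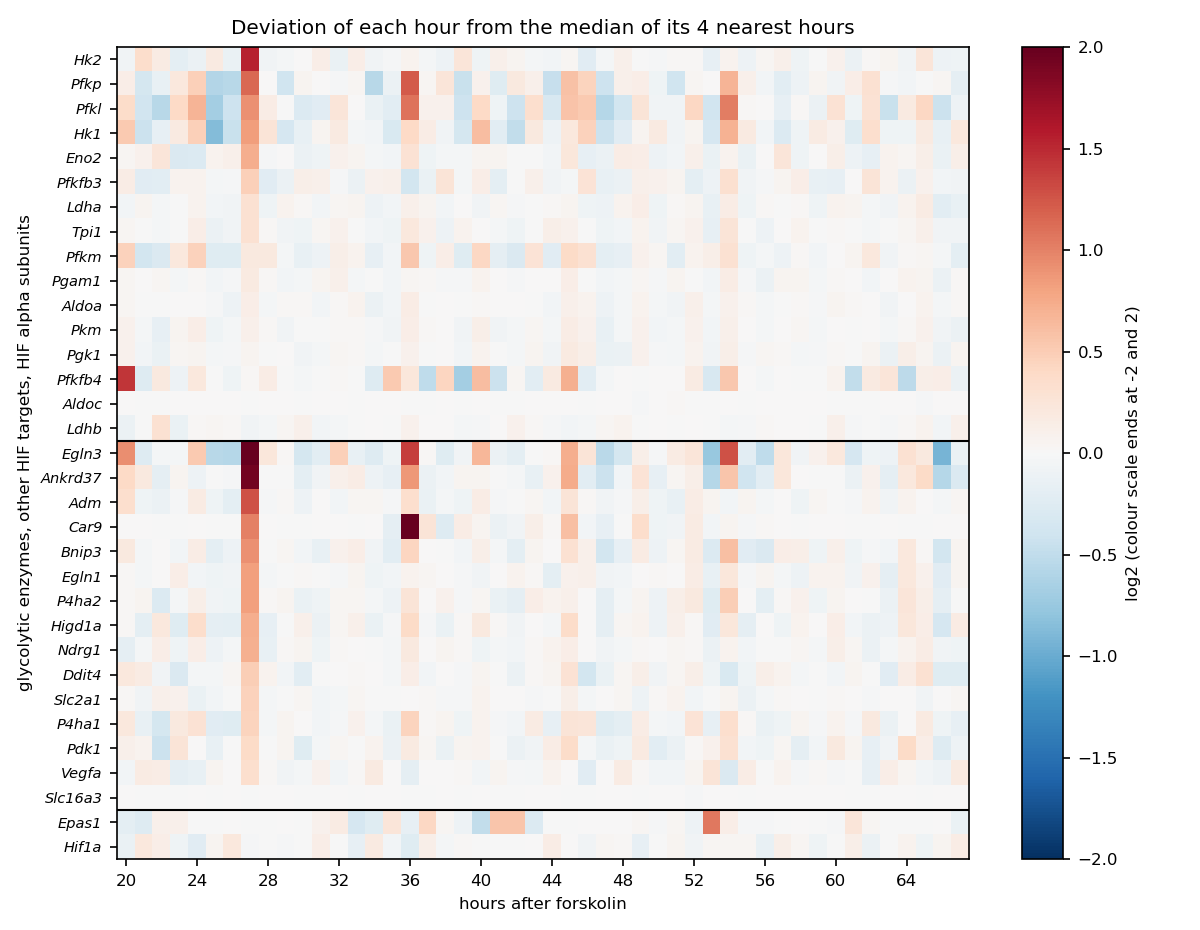
Deviation in log2 of each hour from the median of its 4 nearest hours (colour, red above and blue below, scale from -2 to 2) for the 33 tested members (rows, ordered within each group by their value at hour 27) over the 48 hours (columns). The column at hour 27 is red in most rows, deepest in Egln3 and Ankrd37, and weaker red columns stand at hours 36, 45 and 54.

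The genes around the pathway were unequal at hour 27. Of 28 further HIF targets, 10 had an upward excursion, with a median deviation of 0.40. Gys1 deviated by 2.08, Bhlhe40 by 1.17 and Stc2 by 1.16. Ak4, an adenylate kinase (1.44), Plod2, a collagen lysyl hydroxylase (1.10), and Ero1a, an oxidase of the endoplasmic reticulum (1.07), were picked after their values were seen. The 13 genes of the HIF machinery, Arnt and Vhl included, showed 0 excursions and stayed between -0.20 and 0.19. The 28 further genes of glycolysis and pyruvate use also showed 0 excursions, with a median deviation of 0, and Pdp1 had the lowest value there, -0.51. Excursions at hour 27 were called in 9 of 15 and 10 of 28 genes of the HIF target lists, and in 3 of 16 glycolytic member enzymes. They were called in none of the machinery genes or of the alpha subunits as read by their brightest probe sets. Of 4 macrophage markers, 2 were called as well, of which Csf1r lay below the median of all probe sets on average. The share called upward was 0.826% of all probe sets and 1.13% of those above the median. Members and lists were chosen with earlier results of these data known, so these counts are a description and not a test.

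**Figure D5:**
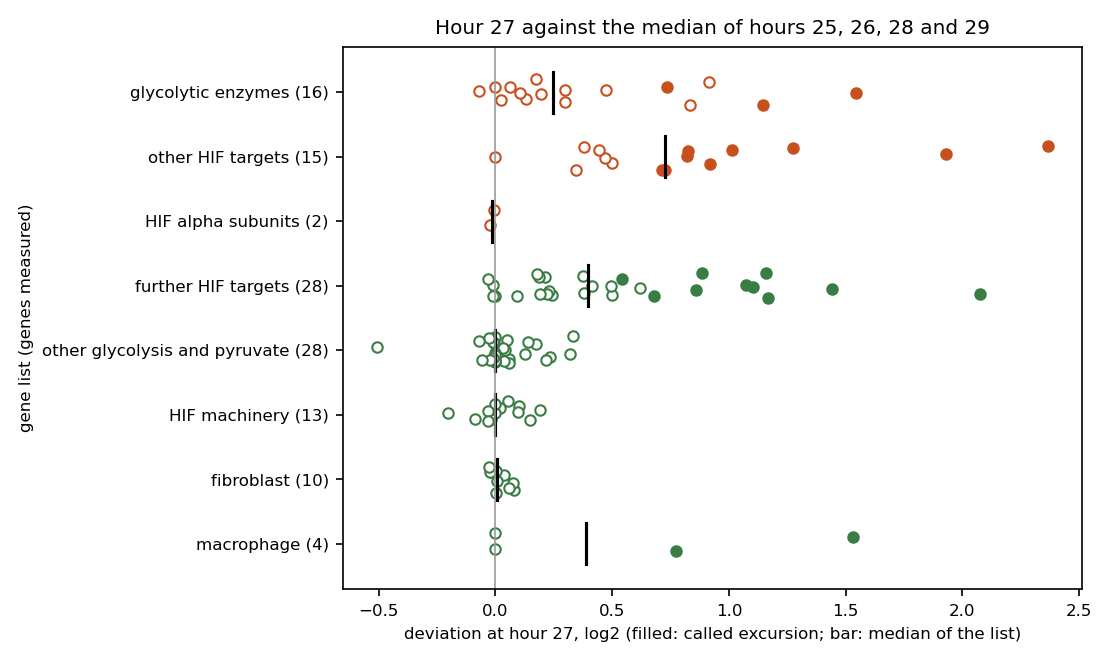
Deviation at hour 27 in log2 (x axis) for each gene of the member groups (orange) and of the lists around the pathway and of cell type markers (green); filled points are excursions, open points are not, and the black bar is the median of the list. The other HIF targets and further HIF targets spread to the right, up to 2.37 and 2.08. Glycolytic enzymes reach 1.54 and macrophage markers 1.53, and the HIF machinery and fibroblast markers stay close to 0.

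The array of hour 27 had a β-actin difference of 1.22 against a course median of 1.13, and a Gapdh difference of 0.71 against a median of 0.66. The part of RNA integrity in the hour-27 values was not tested. The 10 fibroblast markers deviated by -0.03 to 0.08. Of the 4 macrophage markers, Csf1r deviated by 1.53 and Cd14 by 0.78. Csf1r had a mean of 5.72 over the course, below the median of all probe sets. Ptprc and Adgre1 stayed at 5.46 and 5.44 on average, the floor of the array, and moved by less than 0.01. The part of other cells in the hour-27 values was not tested. No endothelial, epithelial, muscle or liver marker had an excursion.

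Only 9 further excursions were found in the members, all upward. At hour 36, 4 members were called: Car9 (2.08), Egln3 (1.39), Pfkp (1.23) and Ankrd37 (0.87). That array had the highest β-actin difference of the course, 2.42, and upward excursions in 4.59% of all probe sets, and the part of RNA integrity in those values was not tested. At hour 20, with a β-actin difference of 2.33, Pfkfb4 deviated by 1.42 against an upward background of 1.83%. At hour 45, with a difference of 2.22, Car9 deviated by 0.59 against 1.52%. The last 3 belong to Epas1, at hours 41, 42 and 53, and never brought it above 6.70. At hour 54, with a β-actin difference of 1.32, 0 members were called, and the largest deviations were 1.27 for Egln3 and 1.02 for Pfkl. The median deviation of the members was 0.14 there, against 0.47 at hour 27.

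Hourly deviations of the members were correlated within each group. The median correlation of hourly deviations over 78 pairs of the 13 HIF targets above the median was 0.63 over the 48 arrays and 0.39 without hour 27. Over 105 pairs of the 15 glycolytic enzymes it was 0.40 and 0.33, and over all pairs of probe sets above the median it was 0.00 in both cases. Without hour 27 and the 10 arrays with a β-actin difference above 1.4, the medians were 0.31 for the HIF targets and 0.32 for the glycolytic enzymes. For Bnip3 and Egln3, 1 pair picked from the 78, the correlation was 0.92, and 0.88 without hour 27. For that pair no value is given without the 10 arrays with a β-actin difference above 1.4. All pairs share the same arrays, so the values are given as a description.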

How the data were processed

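The authors deposited 1 intensity per probe set for each of the 48 arrays. Their methods name GCRMA, the processing notes name MAS5, and no version is given in the sources used here. Intensities ran from 34.8 to 761157 and were taken to log2 with no further normalization. Each array was assigned by the hour in its title, since the treatment label gives the same hour for all. Tests left out 64 control probe sets and covered the other 45037. Of these, 34945 had 1 gene symbol in the platform annotation (34741 updated through the gene identifier), 932 had several and 9160 none.

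Slopes with 24 h cosine terms, natural splines of 4 degrees of freedom and cosines of 24, 12 and 8 h were fitted with limma 3.58.1 in R 4.3.3, with Benjamini-Hochberg adjustment over all 45037 probe sets at 0.05. COSOPT, which the methods name, was not run, and the fixed-period cosines stand in its place. Fisher's G-test was computed over 23 Fourier periods with numpy 2.4.6 in Python 3.11.15. An excursion was a deviation of at least 0.5 (log2) from the median of the 4 nearest hours that also exceeded 4 scaled median absolute deviations of the gene's own deviations. The scripts were tested on simulated data.

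Full values are given for the 10 largest fitted changes past a trend or spline test among members above the median, for the members of the 10 largest excursions, and for Hif1a, Epas1, Gapdh, Vegfa and Car9; from the pathway lists, up to 6 slopes in each direction are named. Members and lists were chosen with earlier results of these data known. With 1 array per hour, precision rests on the number of arrays.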

Additional observations from a re-analysis of the deposited data

How the results depend on the processing

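Under the alternatives run, the count of members with a linear trend stayed between 11 and 17 (15 as reported) and the count of upward excursions at hour 27 between 9 and 14 (12 as reported). Leaving out each array in turn gave 11 to 18 linear trends, 15 to 21 smooth changes and 0 rhythms at 24 or 12 h. The G-test gave 6 to 9 calls with each array replaced by its neighbours. At 8 h, 0 to 2 members passed with 1 array left out, the calls being Aldoc and Slc16a3 at the floor and Pfkm without 1 array. The smooth change was called in 12 members on the arrays whose β-actin difference was 1.4 or less, and the difference of median slopes was -0.0195 without hours 20 to 25. These fits use fewer arrays. The Higd1a slope became 0.0217 as the mean of its probe sets. Over all probe sets the smooth change was called in 34212, in 20485 after quantile normalization, in 15425 after centring and in 16084 of those above the median. The 24 h cosine was called in 132, in 223 of those above the median, in 53 without hours 20 to 25, in 79 with a β-actin covariate (where the 8 h cosine called 3 and not 0), in 55 on those same arrays, and in 251 with a term for hours 52 to 55. Linear trends numbered 13686 (6400 rising, 7286 falling), 8660 on 6 h means, and 19838 (6772 rising, 13066 falling) on the arrays of lower β-actin difference. Calls of Hif1a, Pfkfb4, Ldhb and Higd1a were lost without hour 20, that of Hk2 without hours 20 to 25 (adjusted p = 0.167), and those of Pfkl and Hk1 on 6 h means (adjusted p = 0.0558 and 0.0553). With a β-actin covariate the calls of Pfkfb4, Higd1a and Hif1a were lost (adjusted p = 0.0922, 0.101 and 0.0668). Why these calls were lost was not tested. At hour 27 the mean of all probe sets gave 0.38 for Pfkp, 1.94 for Adm and 2.0 for Egln3. The other Pfkp probe sets lay at the floor of the array, with means of 5.55 and 5.41. They deviated by 0.006 and -0.003 at hour 27. The second probe sets of Adm and Egln3 deviated by 2.60 and 1.66. A contrast of hours 44 to 67 with hours 20 to 43, each hour set against the hour 24 h later, called 12 members and lost Hif1a (adjusted p = 0.0822), Ldhb (0.0689) and Pfkfb4 (0.123). No paired analysis by replicate number was possible because each hour has 1 array. Signals at the floor of the array (Aldoc, Slc16a3, Car9, Epas1) limit what can be measured.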
